A study of Mus musculus with 4 samples.

Results

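The mitochondrial ribosomal protein genes were taken as every gene in the 4 deposited abundance tables whose mouse symbol begins with Mrpl or Mrps followed by a digit. This rule uses names only and found 78 genes among 24532 Gene IDs, and all 78 had a mean of at least 1 TPM, a transcript abundance scaled for transcript length and to the same total in each library, which is the floor that 13652 genes passed. The study compared adult male Kdm3b+/- mice with their wild-type (WT) littermates to ask how losing a copy of this histone H3 lysine 9 demethylase bears on cerebellar memory. RNA-seq was performed on microdissected granule-cell-enriched tissue of the cerebellar vermis from 2 WT and 2 Kdm3b+/- mice, each giving 1 library. The Kdm3b allele carries a gene-trap vector in an intron, comes from 1 targeted embryonic stem cell line and is present in every cell of the animal, and the line was crossed to C57Bl/6N and then C57Bl/6J, so no difference described here can be assigned to granule cells or to the adult stage. The labels give neither litter nor sequencing batch.

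Mitochondria keep their own ribosome, which makes only the few membrane proteins of the respiratory chain and ATP synthase that mitochondrial DNA still encodes. Its ribosomal RNAs come from mitochondrial DNA, whereas each of its proteins is encoded in the nucleus, made in the cytosol and imported. Some of these proteins descend from bacterial ribosomal proteins and others, termed mitochondrion-specific here, were added in the eukaryotic lineage. Symbols do not follow position in every case, since Mrps18a and Mrps30 sit in the large subunit, and Mrps36 is now known not to be a ribosome subunit, so 51 members were counted in the large subunit, 26 in the small and 1 in neither. Mitochondrial transcripts are not analysed here.

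The libraries held 4.92 to 6.69 gigabases of aligned sequence, and the 20 highest genes took 9.51% to 10.3% of the TPM. Kdm3b, the targeted gene, was at 9.10 and 11 TPM in the WT libraries and at 8.30 and 7.90 in the Kdm3b+/- libraries. The groups did not overlap, but the log2 difference of -0.27 (SE 0.17) did not pass the test (limma, adjusted p = 0.424). For the protein, the study reported by immunoblot a significantly lower KDM3B level in the vermis and flocculus of Kdm3b+/- mice. Granule cell markers were abundant, with Gabra6, a GABA-A receptor subunit of granule cells, between 984 and 1199.7 TPM. Other cells were present too: 9 oligodendrocyte markers summed to 14970 to 17900 TPM, and 11 Purkinje cell markers to 1718 TPM in WT 1 but to 748.8, 958.1 and 782.1 in WT 2, Kdm3b+/- 1 and Kdm3b+/- 2. Because WT 1 stands apart in this way, some medians are also given without it. The 12 granule cell markers summed to 4391 and 5263 TPM in WT and to 4494 and 4668 TPM in Kdm3b+/- libraries, and the sums of the astrocyte, oligodendrocyte, microglia, endothelial and red cell lists overlapped between genotypes too. The red cell sum of WT 1 included 506 TPM of Hbb-bs, which was at 8.08, 0.0077 and 0.142 TPM in WT 2, Kdm3b+/- 1 and Kdm3b+/- 2. Of the 5 red cell genes, 3 (Hba-a1, Hba-a2 and Hbb-bt) had groups that did not overlap with Kdm3b+/- higher and 1 (Hbb-bs) with Kdm3b+/- lower. Over all genes tested these shares were 19.2% and 32%. Single glial markers differed, for limma called Fabp7 (log2 fold change 1.49, adjusted p = 0.0133) and Aqp4 (1.102, adjusted p = 0.0330) of 11 astrocyte markers higher and Mobp (-0.93, adjusted p = 0.0133) of 9 oligodendrocyte markers lower in Kdm3b+/- libraries, and 8 of the 11 astrocyte markers had groups that did not overlap, 3 higher and 5 lower. The 7 inhibitory interneuron markers summed to 166 and 124 TPM in WT and to 99.8 and 100.2 TPM in Kdm3b+/- libraries, most of it Gad1, the GABA-synthesising enzyme, and 2 of the 4 tested had groups that did not overlap. In these bulk samples, fewer cells of a type and less RNA per cell cannot be told apart.

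The mitochondrial ribosomal protein genes were higher in the Kdm3b+/- libraries nearly throughout, by small amounts. The Kdm3b+/- mean exceeded the WT mean for 74 of the 78 genes, against 39.6% of all genes tested, and for 58 genes both Kdm3b+/- libraries lay above both WT libraries, against 19.2% of all genes tested. For none did both Kdm3b+/- libraries lie below both WT libraries, which held for 32% of all genes tested. The median log2 fold change was 0.25, with a range from -0.24 to 0.60, where the median over all genes tested was -0.07. All folds are on the log2(TPM + 1) scale.

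No single member passed the test used here. The study's own DESeq2 analysis of the same samples listed Mrpl42, Mrps12 and Mrps21 as differentially expressed. It also reported that its upregulated genes fell mostly in pathways of translation and biosynthesis. At an adjusted p under 0.05 and a fold over 1.2 limma called 0 of the 78 members and 0.461% of all genes tested, and the lowest adjusted p among the members was 0.158. At an unadjusted p under 0.05, 21 members were higher in Kdm3b+/- libraries and 0 were lower, beside 5.47% and 11.5% of all genes tested. The count of 21 rests on particular mice, since it rose without WT 1 and fell with any other mouse left out. The lone library of a group is then assumed to vary like the other group. The members' median fold was 0.20 without Kdm3b+/- 1, 0.17 without WT 2 and 0.31 without WT 1. Over all genes tested these medians were -0.05, -0.04 and -0.10. Scaling moved the count as well, to 34 with FPKM, the other length-scaled unit, and to 34 with median-ratio scaling. The shares over all genes tested were then 8.21% and 8.11%. With 2 mice against 2, an exact permutation test of a single value cannot give a two-sided p below 0.333.

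**Figure D1:**
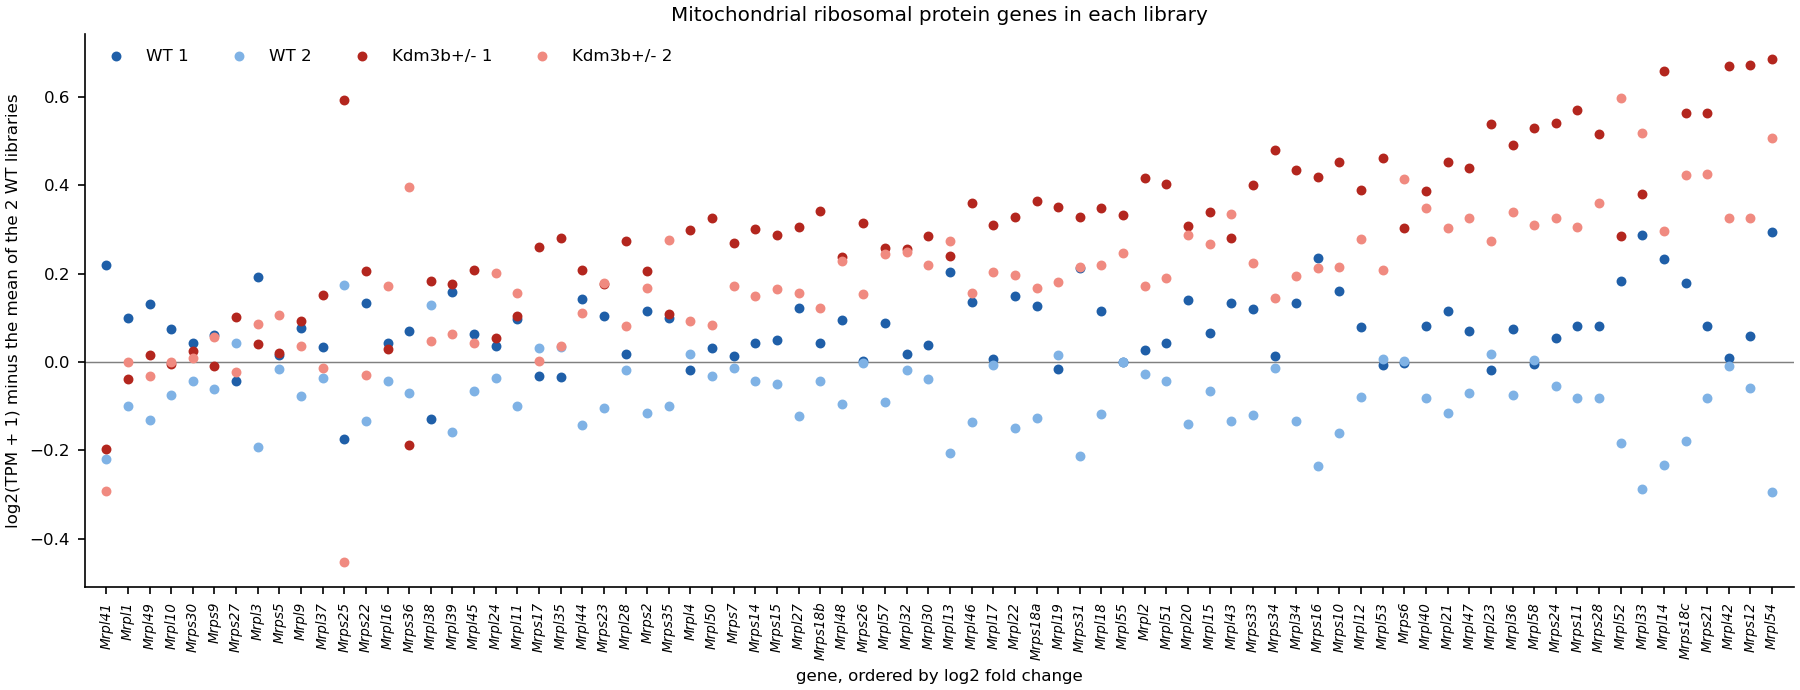
Each of the 78 mitochondrial ribosomal protein genes (horizontal axis, ordered by log2 fold change) is drawn as its log2(TPM + 1) in every library minus the mean of the 2 WT libraries (vertical axis). Red and pink points, the Kdm3b+/- libraries, lie above both blue points, the WT libraries, for 58 genes, and Mrps25 shows the widest scatter within a group.

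The pool of these transcripts as a whole was larger in the Kdm3b+/- libraries. Summed over the 78 genes it was 8054 and 7300 TPM in the WT libraries (7677 ± 533, SD, n = 2) and 9652 and 8786 TPM in the Kdm3b+/- libraries (9219 ± 612, SD, n = 2), a ratio of 1.201. The groups did not overlap, but the gap of 732 TPM between the lower Kdm3b+/- and the higher WT library was no wider than the 754 TPM between the 2 WT libraries. Leaving out each mouse in turn gave ratios of 1.15 to 1.26.

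Both subunits of the ribosome were involved to a similar degree. The 51 large-subunit genes summed to 5520 and 4977 TPM in WT and to 6518 and 5968 TPM in Kdm3b+/- libraries, a ratio of 1.19. The 26 small-subunit genes summed to 2479 and 2273 TPM and to 3088 and 2749 TPM in the same order, a ratio of 1.23. The large-to-small ratio of summed TPM was 2.23 and 2.19 in WT and 2.11 and 2.17 in Kdm3b+/- libraries, so the groups were separated by less than the spread within Kdm3b+/-.

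**Figure D2:**
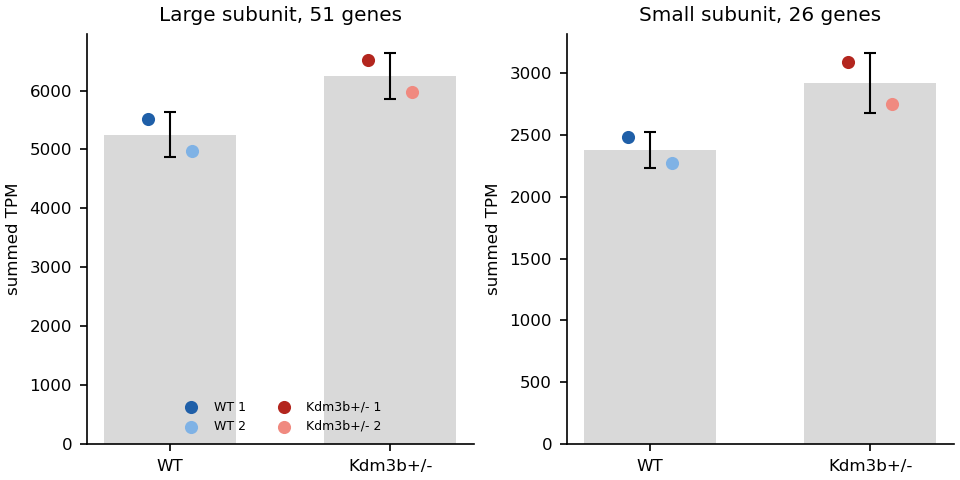
Summed TPM (vertical axes) of the 51 large-subunit genes (left) and the 26 small-subunit genes (right) in WT and Kdm3b+/- libraries, with bars at the mean of 2 libraries, error bars of 1 SD and a point for each library. In both panels the 2 Kdm3b+/- points lie above the 2 WT points, and Kdm3b+/- 1 is the highest.

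Within the large subunit, 47 of 51 genes had the higher mean in Kdm3b+/- libraries, 38 had groups that did not overlap in that direction and 14 had an unadjusted p under 0.05 with Kdm3b+/- higher, with a median log2 fold change of 0.26. The shares over all genes tested are 19.2% and 5.47%. The 31 proteins with a bacterial homologue and the 20 mitochondrion-specific ones had medians of 0.26 and 0.24. All 26 small-subunit genes had the higher mean in Kdm3b+/- libraries, 20 without overlap, and their median was 0.23. There the 16 proteins with a bacterial homologue held all 7 genes with an unadjusted p under 0.05, with a median of 0.32, while the 10 mitochondrion-specific ones held 0, with a median of 0.21. Both counts at an unadjusted p under 0.05 moved with the mouse left out. The large-subunit and small-subunit medians were 0.20 and 0.18 without Kdm3b+/- 1 and 0.31 and 0.32 without Kdm3b+/- 2. They were 0.17 and 0.19 without WT 2 and 0.33 and 0.30 without WT 1. The difference between these classes was not tested.

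Among large-subunit proteins of the catalytic core, which surround the site of peptide bond formation, the differences were uneven. Mrpl2 was at 162 and 156 TPM in WT and at 213 and 179.5 TPM in Kdm3b+/- libraries (log2 fold change 0.30, SE 0.14). Mrpl27, whose bacterial counterpart reaches toward the peptidyl transferase centre, was at 239.6 and 202 TPM against 272 and 245 TPM (0.23, SE 0.14). Mrpl3 showed no such separation, at 99.2 and 75.7 TPM against 89.2 and 92.1 TPM (0.06, SE 0.16), with both Kdm3b+/- values inside the WT range. Adjusted p-values from limma for these 3 genes were 0.307, 0.413 and 0.864.

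The flexible stalks that receive translation factors and release spent tRNA gave a split picture. Mrpl12, the stalk protein that recruits translation factors, was at 213 and 191 TPM in WT and at 264 and 245 TPM in Kdm3b+/- libraries (log2 fold change 0.33, SE 0.13, limma adjusted p = 0.247). Mrpl10, the protein that anchors Mrpl12 to the ribosome, was at 110.1 and 99.2 TPM against 104 and 105 TPM, so that both Kdm3b+/- libraries lay within the WT range (-0.0022, SE 0.13). Mrpl1, of the stalk through which tRNA leaves, was likewise inside the WT range, at 19.2 and 16.6 TPM against 17.3 and 17.8 TPM (-0.02, SE 0.15). The sign of Mrpl1 and Mrpl10 turned with FPKM, median-ratio or quantile scaling, so neither has a direction.

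At the exit of the peptide tunnel, Mrpl23 was at 118 and 121 TPM in WT and at 175 and 145 TPM in Kdm3b+/- libraries (log2 fold change 0.41, SE 0.14). Mrpl47, its neighbour in the same region, was at 41.1 and 37.2 TPM against 53.4 and 49.3 TPM (0.38, SE 0.14). Mrpl45, which tethers the ribosome to the inner membrane, overlapped between genotypes, at 81.7 and 74.7 TPM against 90.4 and 80.5 TPM (0.13, SE 0.14). In the central protuberance, the crown of the large subunit, Mrpl40 and Mrpl18 had log2 fold changes of 0.37 and 0.28 without overlap between groups, whereas Mrpl38 was at 0.12 with overlap. Limma adjusted p-values for these 6 genes ran from 0.216 to 0.705.

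The largest difference in the set was that of Mrpl54 (Gene ID 66047), a mitochondrion-specific large-subunit protein. It was at 55.0 and 36.3 TPM in WT and at 72.5 and 63.9 TPM in Kdm3b+/- libraries, a log2 fold change of 0.60 (SE 0.20, limma adjusted p = 0.206). The 2 groups did not overlap, but WT 2 lay further below WT 1 than WT 1 lay below Kdm3b+/- 2. Mrpl14, the site where the assembly factor Malsu1 docks, was at 73.1 and 52.6 TPM against 98.6 and 76.5 TPM (0.48, SE 0.19, limma adjusted p = 0.258), and Kdm3b+/- 2 was close to WT 1. Mrpl58, formerly Ict1, is a peptidyl-tRNA hydrolase built into the large subunit that frees stalled ribosomes, and its WT values were nearly equal, at 72.5 and 73.0 TPM against 105 and 90.5 TPM (0.42, SE 0.14, limma adjusted p = 0.209).

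Mrpl42 (Gene ID 67270), another mitochondrion-specific large-subunit protein, combined a high level with a difference well above the WT spread. It was at 244 and 241 TPM in WT and at 386 and 304 TPM in Kdm3b+/- libraries, a log2 fold change of 0.50 (SE 0.14, limma adjusted p = 0.174). The WT libraries differed by a few TPM whereas the Kdm3b+/- libraries differed from each other by more than Kdm3b+/- 2 differed from WT. The gene lies on the minus strand of chromosome 10, from 95480806 to 95501927 in the deposited data. Its promoter is from the RefSeq table of GRCm38.p6 (250 bases before to 50 after the RefSeq start, chr10:95501900-95502199, minus strand, 5′ to 3′). The RefSeq start lies upstream of 95501927. The promoter is shown because it holds the sequence AAGATGGCG recognised by the transcription factor YY1, in capitals, 27 bases after the RefSeq start:
Mrpl42: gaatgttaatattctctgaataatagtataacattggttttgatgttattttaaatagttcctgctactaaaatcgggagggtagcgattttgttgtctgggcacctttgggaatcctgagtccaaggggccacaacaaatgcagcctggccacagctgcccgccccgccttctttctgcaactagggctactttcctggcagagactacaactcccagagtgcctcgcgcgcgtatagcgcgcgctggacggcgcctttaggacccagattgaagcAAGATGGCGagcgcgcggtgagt

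In the small subunit the largest difference was that of Mrps12 (Gene ID 24030), homologue of bacterial S12, which lines the decoding centre where codon and anticodon are matched. It was at 191 and 176 TPM in WT and at 293 and 230.1 TPM in Kdm3b+/- libraries, a log2 fold change of 0.50 (SE 0.15, limma adjusted p = 0.177). Kdm3b+/- 1 was the highest by a wide margin, and both Kdm3b+/- libraries lay above both WT libraries. The gene runs from 28739641 to 28741781 on the minus strand of chromosome 7, and its RefSeq GRCm38.p6 promoter (chr7:28741772-28742071, minus strand, 5′ to 3′) is shown for the ETS-family sequence CCGGAAG, in capitals, at the RefSeq start:
Mrps12: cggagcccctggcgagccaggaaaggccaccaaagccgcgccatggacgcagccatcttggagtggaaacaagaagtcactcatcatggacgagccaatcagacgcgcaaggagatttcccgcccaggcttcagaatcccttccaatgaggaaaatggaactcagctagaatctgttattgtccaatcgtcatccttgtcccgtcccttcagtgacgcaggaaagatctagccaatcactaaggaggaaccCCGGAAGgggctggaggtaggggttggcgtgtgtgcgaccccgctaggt

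Mrps21 (Gene ID 66292), homologue of bacterial S21, was at 111 and 99.2 TPM in WT and at 156 and 141 TPM in Kdm3b+/- libraries (log2 fold change 0.49, SE 0.14, limma adjusted p = 0.158, the lowest in the set). Its groups were clearly apart. Mrps6, which neighbours the bacterial S18 homologue on the platform of the subunit, had WT values that agreed at 115 and 115 TPM and Kdm3b+/- values of 142 and 154 TPM (0.36, SE 0.13, limma adjusted p = 0.228). It was among the few members highest in Kdm3b+/- 2, as were Mrpl33 and Mrpl52.

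The S18 protein is represented by 3 paralogues that occupy different places. Mrps18c, the paralogue at the bacterial S18 position, was at 89.4 and 69.5 TPM in WT and at 117 and 106 TPM in Kdm3b+/- libraries (log2 fold change 0.49, SE 0.16, limma adjusted p = 0.191). Mrps18a, in the large subunit, was at 212 and 178 TPM against 250 and 218 TPM (0.27, SE 0.14, limma adjusted p = 0.370). Mrps18b, in the small subunit at a mitochondrion-specific position, was at 72.8 and 68.5 TPM against 89.8 and 77.0 TPM (0.23, SE 0.14, limma adjusted p = 0.424). All 3 had groups that did not overlap, with Kdm3b+/- higher, and the differences between their folds were not tested. Mrps18a had the highest level of the 3 in every library.

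Mrps11 and Mrpl46 are members that start from a common stretch of DNA. Mrps11, on the platform of the small subunit, starts at 78783131 on the plus strand of chromosome 7, and Mrpl46, of the central protuberance of the large subunit, starts 42 bp away at 78783089 on the minus strand. Mrps11 was at 97.6 and 86.9 TPM in WT and at 137 and 114 TPM in Kdm3b+/- libraries (log2 fold change 0.44, SE 0.15, limma adjusted p = 0.212). Mrpl46 was at 152 and 126 TPM against 178 and 154 TPM (0.26, SE 0.15, limma adjusted p = 0.396), with WT 1 just under Kdm3b+/- 2. That stretch is given as the RefSeq GRCm38.p6 window of Mrps11 (chr7:78782881-78783180, plus strand, 5′ to 3′), in which capitals mark AAGATGGCG read on the other strand, 108 bases before the Mrps11 start:
Mrps11: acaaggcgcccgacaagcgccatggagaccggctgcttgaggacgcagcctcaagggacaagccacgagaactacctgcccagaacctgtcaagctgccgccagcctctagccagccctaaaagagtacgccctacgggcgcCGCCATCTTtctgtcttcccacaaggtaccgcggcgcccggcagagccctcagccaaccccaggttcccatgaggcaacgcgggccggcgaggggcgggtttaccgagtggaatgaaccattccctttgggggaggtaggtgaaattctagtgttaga

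The 4 members with the lower mean in Kdm3b+/- libraries were all large-subunit genes, and each had overlapping groups. Mrpl41 (Gene ID 107733), a mitochondrion-specific protein, was at 96.2 and 70.6 TPM in WT and at 71.8 and 67.1 TPM in Kdm3b+/- libraries, a log2 fold change of -0.24 (SE 0.17, limma adjusted p = 0.475). Only WT 1 was set apart there. Mrpl49 was at 109 and 90.5 TPM against 100.4 and 97.0 TPM (-0.01, SE 0.14), with both Kdm3b+/- values inside the WT range. The other two were Mrpl1 and Mrpl10. Without WT 1 the fold of Mrpl49 was 0.12 and those of Mrpl1 and Mrpl10 were 0.08 and 0.07. Mrpl41 occupies 24972470 to 24975098 on the minus strand of chromosome 2, and its RefSeq GRCm38.p6 promoter (chr2:24975049-24975348, minus strand, 5′ to 3′) is shown for contrast, since it holds none of the 4 motifs searched and is therefore in lower case throughout:
Mrpl41: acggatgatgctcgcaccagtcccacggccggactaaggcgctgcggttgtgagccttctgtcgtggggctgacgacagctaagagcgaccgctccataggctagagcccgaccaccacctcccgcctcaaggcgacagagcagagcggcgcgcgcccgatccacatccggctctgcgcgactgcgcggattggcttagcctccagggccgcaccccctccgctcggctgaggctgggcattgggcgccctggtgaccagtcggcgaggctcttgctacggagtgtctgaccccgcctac

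The members next to these in order of fold were also nearly level between genotypes. Mrps30, a large-subunit protein in spite of its name, was at 92.8 and 87.4 TPM in WT and at 91.6 and 90.7 TPM in Kdm3b+/- libraries (log2 fold change 0.02, SE 0.13). Mrps9, a protein of the head of the small subunit, was at 75.4 and 69.1 TPM against 71.7 and 75.2 TPM (0.02, SE 0.14). Limma adjusted p-values were 0.961 and 0.944, and the sign of Mrps9 turned after correction for transcript length and GC content. Mrps36, counted in neither subunit, was at 55.2 and 50 TPM against 46.0 and 69.5 TPM (0.10, SE 0.19), with the WT values between the Kdm3b+/- values.

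Levels per transcript length spanned a wide range within the set, although the proteins are mostly present once per ribosome. The highest mean TPM was that of Mrpl48, a protein of the central protuberance, at 309 and 270.1 TPM in WT and 340.4 and 338 TPM in Kdm3b+/- libraries (log2 fold change 0.23, SE 0.13, limma adjusted p = 0.373). Mrpl28, homologue of bacterial L28, followed at 295 and 288 TPM against 353 and 309 TPM (0.18, SE 0.13). At the low end stood Mrpl17, whose bacterial homologue lies near the tunnel exit, at 15.5 and 15.4 TPM against 19.4 and 18 TPM (0.26, SE 0.15). Mrps25, of the small subunit, was at 16.7 and 21.5 TPM against 29.1 and 13.6 TPM, so the Kdm3b+/- libraries held both its highest and its lowest value (0.07, SE 0.30). Across the 78 genes the log2 fold change had a Pearson r of 0.184 and a Spearman rho of 0.189 with log2 mean TPM, and genes of the same libraries are not independent replicates.

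The 4 libraries were ordered alike for most members. WT 2 was the lowest library for 65 of 78 genes and Kdm3b+/- 1 the highest for 59, and 42 genes had the full order WT 2, WT 1, Kdm3b+/- 2, Kdm3b+/- 1 from low to high. The libraries took the same order on the first principal component of all genes tested, at -26.3, -10.5, 12.7 and 24.2. The median member was higher in WT 1 than in WT 2 by 0.15 on the log2 scale, with 67 of 78 genes higher. It was higher in Kdm3b+/- 2 than in WT 1 by 0.12, with 63 genes higher, and in Kdm3b+/- 1 than in Kdm3b+/- 2 by 0.13, with 62 genes higher. The step between the nearest libraries of the genotypes was no larger than the steps between mice of a genotype. What separates the mice of a genotype was not tested.

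Transcript length moved with the differences. Members have short transcripts, with a median of 1866 bases for the longest annotated transcript against 3364 bases over the 12904 tested genes with a length. Among all tested genes under 1000 bases the median log2 fold change was 0.29 and 37.9% were higher in Kdm3b+/- libraries at an unadjusted p under 0.05, while from 2000 to 4000 bases the median was -0.13 and that share 2.84%. The 17 members under 1000 bases had a median of 0.42, and 11 of them had an unadjusted p under 0.05. The 24 members from 1000 to 2000 bases had a median of 0.24 where all genes had 0.08, and the 26 from 2000 to 4000 bases had 0.20 where all genes had -0.13. For the 11 members of 4000 bases or more these medians were 0.23 and -0.11. The members' median lay above that of all genes in each class. The longest annotated transcript need not be the one expressed, so a member can be placed in too long a class. For Mrps26 it was 4278 bases, longer than the whole deposited gene model from 130563757 to 130565394.

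After correction of every gene's log2 value for transcript length and GC content, the median over members was 0.23 and the median over all genes 0.00119. The medians of the 4 length classes of members, from short to long, were then 0.23, 0.14, 0.26 and 0.30. Those of all genes in the same classes were 0.0957, 0.0357, -0.0197 and -0.00327, so genes under 1000 bases stayed above 0 as a class. Across the 78 members the fold had a Pearson r of -0.332 and a Spearman rho of -0.364 with log10 length before correction, and 0.404 and 0.387 after it. The correction also used the longest annotated transcript and carries the same limit. The part that length plays in the difference between genotypes was not tested.

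**Figure D3:**
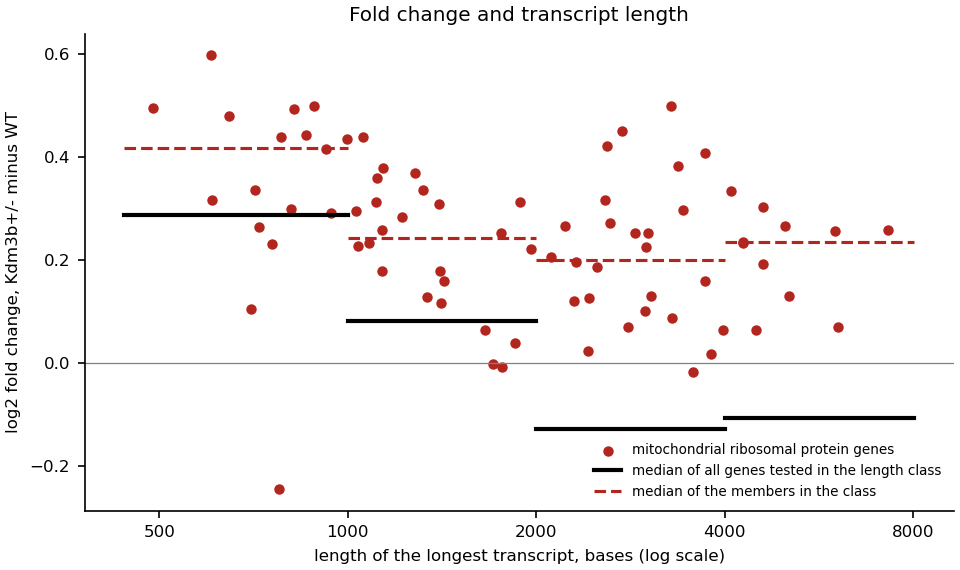
Log2 fold change of each mitochondrial ribosomal protein gene (red points, vertical axis, Kdm3b+/- minus WT) against the length of its longest transcript in bases (horizontal log axis), with the median of all tested genes (black) and of the members (dashed red) in 4 length classes. The black medians go from 0.29 under 1000 bases to -0.11 at 4000 bases or more, and the dashed medians lie above them in each class.

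The members were spread over 17 chromosomes, with 11 on chromosome 11 as the most on any and 0 on chromosome 18, which carries Kdm3b. For 27 of 78 members (34.6%) another expressed gene started on the opposite strand within 1 kb, against 15.1% of tested genes. These pairs are not all divergent. Mrpl21 with Ighmbp2, Mrpl43 with Twnk and Mrpl48 with Rab6a run into each other, with gene models that overlap by 110, 780 and 411 bp. These 27 had a median log2 fold change of 0.26, with 22 not overlapping between genotypes. The 51 without such a neighbour had 0.23, with 36 not overlapping. Kdm3b+/- was the higher group in all of these, which held for 19.2% of all genes tested. Of the 25 neighbours that are not members, 11 had the higher and 14 the lower mean in Kdm3b+/- libraries, with a median of -0.13. Over all genes tested, 39.6% had the higher mean.

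Some of these neighbouring pairs moved alike and others did not. Mrpl47 and Ndufb5, a complex I subunit whose start is 308 bp away, had log2 fold changes of 0.38 and 0.35. Mrps12 and Sars2, the mitochondrial seryl-tRNA synthetase, start 187 bp apart, so the Mrps12 promoter printed above contains both starts, and had 0.50 and -0.17. Mrpl49 and Fau, which encodes a cytosolic ribosomal protein fused to a ubiquitin-like domain, start 137 bp apart and had -0.01 and 0.45. Fau was at 177 and 197 TPM in WT and at 274 and 239 TPM in Kdm3b+/- libraries, without overlap. Mrpl41, the lowest member, faces Pnpla7, a lysophospholipase gene 935 bp away, which was at 8.97 and 6.91 TPM in WT and at 2.78 and 4.09 TPM in Kdm3b+/- libraries (-1.02, SE 0.21, limma adjusted p = 0.0997). Unadjusted p-values were 0.00825 for Fau and 0.00085 for Pnpla7 by limma.

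**Figure D4:**
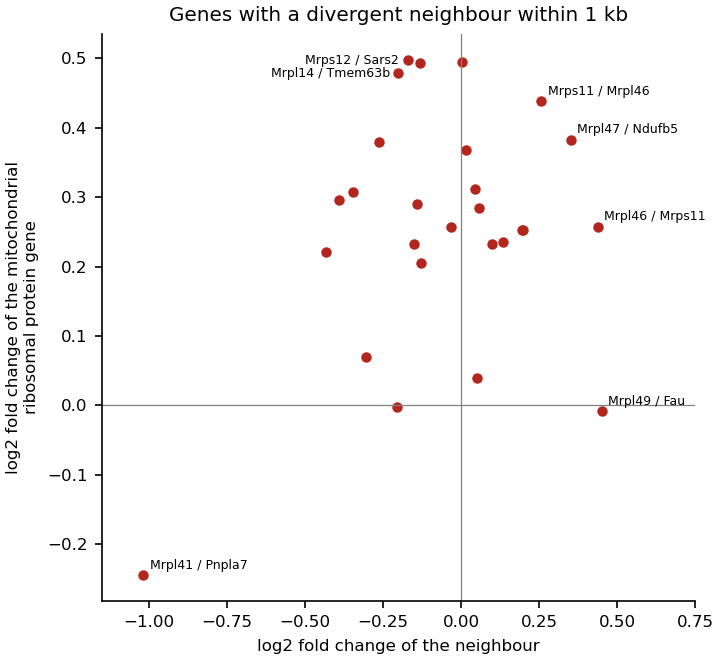
Log2 fold change (Kdm3b+/- minus WT) of 27 mitochondrial ribosomal protein genes (vertical axis) against that of a neighbour (horizontal axis), with pairs named as member and neighbour. A neighbour is an expressed gene that starts on the opposite strand within 1 kb, and the title calls every such neighbour divergent. Most points lie above 0 on the vertical axis and on either side of 0 on the horizontal axis, and Mrpl41 with Pnpla7 lies at the lower left, at -0.24 and -1.02.

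Gene models of 13 members overlap that of another expressed gene, on the same strand for 4 of them (Mrpl43, Mrpl53, Mrps6 and Mrps23) and on the opposite strand only for 9. The latter include Mrps25, which shares 3536 bp with Nr2c2, at means of 20.2 and 17.2 TPM. They also include Mrpl41, which shares 1002 bp with Dph7, at means of 76.4 and 44.4 TPM. Whether the counting used strand is not given in the sources used here, so reads in the shared part cannot be assigned with certainty. The 65 members free of such overlap had a median log2 fold change of 0.26. Of these, 18 had an unadjusted p under 0.05 with Kdm3b+/- higher, beside 5.47% of all genes tested. In 49 the Kdm3b+/- libraries lay above the WT libraries without overlap, beside 19.2% of all genes tested.

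RefSeq gave a promoter for 69 members. The ETS-family sequence CCGGAAG, on either strand, occurred in 24 of them (34.8%), against 9.14% of 27025 mouse promoters of the same length and 17.4% of the 10715 that belong to tested genes. The NRF1 core GCGCATGC occurred in 8 (11.6%), against 2.80% of all promoters and 5.38% of those of tested genes. AAGATGGCG, the YY1 sequence, also occurred in 8 (11.6%), against 1.48% and 3.09%. The letters of a TATA box, TATAAA, occurred in 4 (5.8%), against 14.2% and 6.89%. These matches lay 68 to 181 bases before the start, and position was not used in the search. Adjacent matches can share letters, AAG between the ETS and YY1 sequences and GCG between the YY1 and NRF1 sequences, and a match is a description of letters only. The genes for NRF1 and for GABPA, an ETS-family factor, had lower means in Kdm3b+/- libraries. Nrf1 was at 34.7 and 50.9 TPM in WT against 33.6 and 33.5 TPM (log2 fold change -0.32, SE 0.19, limma adjusted p = 0.405). Gabpa was at 6.74 and 8.91 TPM against 6.85 and 6.57 TPM, with overlap (-0.18, SE 0.18, limma adjusted p = 0.630).

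Mitoribosome proteins whose symbols fall outside the Mrp series did not all follow the members. Aurkaip1, a small-subunit protein first known as an Aurora kinase partner, was at 182 and 151 TPM in WT and at 243 and 206 TPM in Kdm3b+/- libraries (log2 fold change 0.43, SE 0.15, limma adjusted p = 0.215). Chchd1, also of the small subunit, and Gadd45gip1, of the large subunit, had 0.37 and 0.33, each without overlap between groups. Dap3, the GTP-binding protein of the small subunit, was at 48.5 and 43.9 TPM against 41.1 and 41.9 TPM, below both WT libraries (-0.15, SE 0.14, limma adjusted p = 0.611). Ptcd3, a pentatricopeptide repeat protein of the small subunit, was at 46.3 and 59.0 TPM against 47.1 and 43.9 TPM, with overlap (-0.20, SE 0.16). The sign of Dap3 turned after the correction for length and GC content, to 0.03.

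The rest of the mitochondrial translation machinery lay close to the median of all genes tested, and limma called 0 genes in each of the following lists. The 12 translation factors had a list median of -0.02. At an unadjusted p under 0.05, 1 was higher and 0 were lower, beside 5.47% and 11.5% of all genes tested. That gene was Tsfm, the exchange factor that recharges elongation factor Tu, at 67.6 and 75 TPM in WT and 97.3 and 86.1 TPM in Kdm3b+/- libraries (log2 fold change 0.36, SE 0.14). Tufm, elongation factor Tu itself, was at 140.2 and 136 TPM against 134 and 144 TPM (0.01, SE 0.13). Tufm overlapped between genotypes and Tsfm did not.

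Of 24 assembly and rRNA modification factors, 0 were higher and 1 lower at an unadjusted p under 0.05, with a list median of 0.05. Over all genes tested these shares were 5.47% and 11.5%. The lower gene was Dhx30, an RNA helicase of ribosome assembly, at 65.9 and 89.4 TPM in WT and 54.3 and 57.5 TPM in Kdm3b+/- libraries (log2 fold change -0.45, SE 0.17). Malsu1, which keeps an immature large subunit from joining the small and docks on Mrpl14, had 0.33 (SE 0.17) without overlap. Of 9 genes for mitochondrial mRNA stability and membrane insertion, 1 was higher at an unadjusted p under 0.05, Slirp, which stabilises mitochondrial mRNA, with 0.36 (SE 0.14), and the list median was -0.03.

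The 17 mitochondrial tRNA synthetases had a median of -0.15, with 0 higher and 2 lower at an unadjusted p under 0.05. Over all genes tested, 5.47% were higher and 11.5% lower at this threshold. Lars2, the leucyl-tRNA synthetase, was at 89.0 and 8.04 TPM in WT and at 5.04 and 6.84 TPM in Kdm3b+/- libraries, so its log2 fold change of -2.05 (SE 0.80) rests on WT 1. Aars2, the alanyl-tRNA synthetase, was at 29.2 and 44.1 TPM against 18.4 and 30.3 TPM, with overlap (-0.58, SE 0.25). The 15 genes of mitochondrial DNA transcription and replication had a median of -0.18, again with 0 higher and 2 lower, Twnk, the replicative helicase, and Polrmt, the mitochondrial RNA polymerase, at 34.4 and 61.3 TPM in WT and 28.2 and 34.1 TPM in Kdm3b+/- libraries. The synthetase median was -0.013 after length and GC correction and -0.0475 with quantile scaling, and the DNA list's median was -0.0773 with quantile scaling and -0.0509 without WT 2. Differences between these lists and the mitoribosome were not tested.

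**Figure D5:**
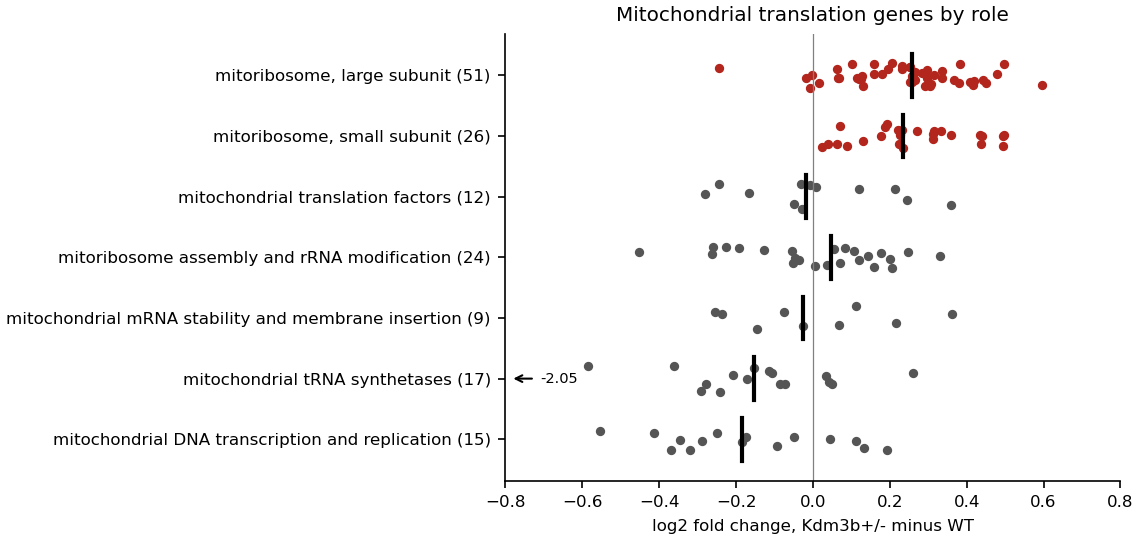
Log2 fold change (horizontal axis, Kdm3b+/- minus WT) of each gene in 7 roles of mitochondrial translation, with the number of genes in parentheses, red points for the 2 subunits of the mitochondrial ribosome, grey points for other roles and a black bar at the median. The subunit medians are 0.26 and 0.23 while the other medians lie between -0.18 and 0.05, and the arrow marks Lars2 at -2.05.

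Higher means in Kdm3b+/- libraries were also found in related families. The 86 tested cytosolic ribosomal protein genes had a median log2 fold change of 0.37, with 84 higher in mean. At an unadjusted p under 0.05, 59 were higher and 0 lower. The 83 tested nuclear genes for respiratory chain and ATP synthase subunits had a median of 0.35, with 75 higher in mean. At an unadjusted p under 0.05, 48 were higher and 2 lower. Over all genes tested, 39.6% were higher in mean, and 5.47% were higher and 11.5% lower at that threshold. Both family medians are above the 0.25 of the mitochondrial ribosomal protein genes, and limma called 0 genes in either family. No test of the difference between families was made. Beside these, the granule cell markers had a median of 0.01 and the Purkinje cell markers, 11 of 11 with the lower mean in Kdm3b+/- libraries, a median of -0.49. That tally rests on WT 1, since without it 5 of the 11 Purkinje cell markers had the lower mean, with a median of 0.0083. Without WT 1 the median over the 78 members was 0.31, but WT 2, then the only WT library, was the lowest library for 65 of them. The part of cell composition in the differences described was not tested.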

How the data were processed

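Cerebellar granule-cell-enriched RNA from 2 WT and 2 Kdm3b+/- mice was sequenced by the authors, trimmed, aligned with STAR and quantified with StringTie; versions, genome build and strandedness are not given in the sources used here. The deposited tables hold TPM and FPKM values and coverage signal per gene, all made by the authors, and no read counts. Total depth, in aligned bases, was obtained from the deposited coverage and FPKM and shows how much sequence stands behind each library. The number of reads per gene is unknown, so no counting interval is given.

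TPM was summed over rows sharing a Gene ID (220 IDs). Genes at 1 TPM or more on average were fitted on log2(TPM + 1) with limma 3.58.1 (lmFit, eBayes with trend, R 4.3.3), genotype as the only term, two-sided, with Benjamini-Hochberg adjustment over 13652 genes, and a gene was called at an adjusted p under 0.05 and a fold over 1.2. The script was tested on simulated data. The study's own count model could not be used on TPM. The labels only number the replicates, and it is the study that states 2 mice per group.

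Members and gene lists were chosen with earlier results of these data known. Genes were named by rule: Kdm3b, members called, the 6 largest and 6 most negative folds, the 3 highest and 3 lowest levels, the Mrps18 paralogues, mitoribosome proteins with other symbols, and 3 members (Mrpl42, Mrps12, Mrps21) in the study's list of differentially expressed genes from these same samples. That list is not independent evidence. The other 75 members had a median log2 fold change of 0.25. At an unadjusted p under 0.05, 18 of them were higher, beside 5.47% of all genes tested. The remaining genes in the text were named for their role or place, after their values were seen. Starts of 90.4% of Gene IDs lay within 1 kb of RefSeq GRCm38.p6, so that build was used for promoters, and lengths came from GENCODE M21. Alternatives covered FPKM, scaling, filters, pseudocount, length and GC correction, a replicate block and leaving out each library.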

Additional observations from a re-analysis of the deposited data

How the results depend on the processing

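The 78 members kept a positive median under each alternative run, from 0.17 without WT 2 to 0.31 without WT 1 when mice were left out in turn. None was called under any alternative without a replicate block. The replicate block, which pairs mice by label number, gave 4 called members (Mrpl42, Mrps12, Mrps21 and Mrpl54, adjusted p 0.0409 to 0.0444) and 33 at an unadjusted p under 0.05, but it also called 600 of 13652 genes (4.39%), and with length and GC correction added it called 0 members and 59 genes in all. The numbers are not known to pair mice, and same-numbered deviations correlated at 0.121, or 0.0229 after length and GC correction, so the block is given here only. The count at an unadjusted p under 0.05, 21 in the report, was 34 with FPKM, 34 with median-ratio scaling, and from 2 to 35 with each mouse left out. Signs turned for the following. The median of translation factors became 0.0413 (FPKM), 0.0475 (length and GC correction, with or without the block), 0.0497 (median-ratio) and 0.0913 (quantile), and from -0.0761 to 0.0568 with a mouse left out (0.0457 without WT 1). That of mRNA stability genes became 0.0375, 0.041, 0.0442 and 0.0452 in the same order, and from -0.0845 to 0.0225 with a mouse left out. Mrpl1 became 0.0407, 0.0411, 0.0495 and 0.1004, and from -0.1167 to 0.0808 (0.0013 without Kdm3b+/- 1) with a mouse left out. Mrpl10 became 0.0618 (FPKM), 0.0047 (without the 20 highest genes), 0.0685 (median-ratio) and 0.0268 (quantile), and from -0.0767 to 0.0723 (0.0009 without Kdm3b+/- 1) with a mouse left out. Mrpl49 became 0.0561, 0.0629 and 0.031 (FPKM, median-ratio, quantile), and from -0.1388 to 0.1231 (0.0168 without Kdm3b+/- 2) with a mouse left out. After length and GC correction, with or without the block, Dap3 became 0.0278 and Mrps9 -0.0017. With a mouse left out, Mrps9 ran from -0.0379 to 0.086 (-0.0095 without Kdm3b+/- 2), Mrps30 from -0.0261 to 0.0596, and Mrps25 from -0.4524 (without Kdm3b+/- 1) to 0.5936, with -0.1028 without WT 1. The median of Purkinje cell markers became 0.0083 without WT 1, which was tried only after the data had been seen. The causes were not tested. The tables give no read counts, so counting error in the lowest members could not be separated from the spread between mice.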
